A study of Saccharomyces cerevisiae with 30 samples.

Results

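The RAD genes and their partners of the DNA damage checkpoint were followed in budding yeast that lost the centromere of chromosome IV. The group was set by gene name and held 33 of the 7127 genes in the expression table. By textbook role it had 8 checkpoint genes, 8 genes of recombination, 4 of post-replication repair and 13 of nucleotide excision repair. Of these, 8 lie on chromosome IV and 25 on 10 other chromosomes. All 33 were expressed above a mean of 10 normalised read counts, so all of them entered the tests.

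RNA was sequenced from 2 haploid MATa strains in the S288c background, in 10 groups of 3 libraries each. In the CEN4* strain, lox sites with a KanMX marker flanked CEN4, and its cells are called cen4- at the later times, once the recombinase has removed the centromere. In the control strain, CEN4, the centromere had no lox sites. Both strains carried Cre-EBD78, a recombinase that works only with beta-estradiol, expressed from the GDP promoter with a LEU2 marker; in CEN4 the label places it at ura3. Both also carried leu2-delta-0, his3-delta-1, met15-delta-0 and ura3-delta-0, and both received 1 µM beta-estradiol in YPD, a rich glucose medium, at 30 °C. Samples were taken at 0, 30, 60, 120 and 180 min, in 3 independent experiments per the labels. The libraries are from whole populations, and how large a share of the cells had lost CEN4 was not analysed here. Fewer cells with a transcript and less of it per cell cannot be told apart in such samples.

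Libraries held 8218002 to 14956813 reads, and the lowest member in any library still had 88 reads. Over all libraries the 7 MATa marker genes lay at 182 to 19462 normalised counts, MFA1 at 1734 to 7051. Of 4 alpha-cell genes, MF(ALPHA)1 stayed at 3.55 to 24.6, STE3 at 46.9 to 92.6 and MF(ALPHA)2 at 77.1 to 156, while SAG1 reached 401 to 565. URA3 and MET17, which both strains lack, had 0 reads in all 30 libraries. HIS3, of which both strains carried the his3-delta-1 allele, still lay at 533 to 831 normalised counts. LEU2, the marker of the recombinase, lay at 1991 to 6238. A value below is a normalised read count, meaning the reads of a gene divided by the size factor of its library. The excision effect at a time compares how far each strain had moved from its own 0 min libraries: it is the log2 change of the excised strain less the log2 change of CEN4. It removes what time and beta-estradiol do in both strains. A gene is called where limma gave an adjusted p (Benjamini-Hochberg, over 5948 genes) below 0.05. Higher or lower in the excision effect does not by itself mean that the excised strain moved that way. How many of all genes lack overlap between the strains was not counted.

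As background, the checkpoint kinases Mec1 and Tel1 sense damaged DNA, adaptors such as Rad9 pass the signal to the kinase Rad53, and the cell cycle is held while repair goes on. Recombination proteins of the RAD52 group mend broken chromosomes, excision repair removes bulky lesions, and the Rad6 and Rad18 pathway lets replication pass lesions. Much of the checkpoint acts through phosphorylation rather than through the amount of transcript. A chromosome without a centromere cannot attach to the spindle and is passed on unevenly, so that daughter cells can come to hold an extra copy or none.

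The member nearest to the centromere of chromosome IV was RAD57, 5.38 kb away, and the farthest on that chromosome was RAD30, at 853.4 kb. RAD59 was the only member on the left arm of chromosome IV. The other 7 lay to the right of the centromere.

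Upstream windows of members were read from the R64 genome, from 350 to 101 bases before the start codon, and are shown for the 3 genes that hold an MCB and for RAD16, the member with the largest excision effect off chromosome IV. The MCB (ACGCGT) is bound by the MBF factor of the G1 to S transition, the SCB (CGCGAAA) by SBF of the same stage, and the STRE (AGGGG) by the stress factors Msn2 and Msn4. Capitals mark these motifs on either strand, so that TTTCGCG is an SCB and CCCCT a STRE read from the other strand.
RAD53, chrXVI:264293-264542, - strand: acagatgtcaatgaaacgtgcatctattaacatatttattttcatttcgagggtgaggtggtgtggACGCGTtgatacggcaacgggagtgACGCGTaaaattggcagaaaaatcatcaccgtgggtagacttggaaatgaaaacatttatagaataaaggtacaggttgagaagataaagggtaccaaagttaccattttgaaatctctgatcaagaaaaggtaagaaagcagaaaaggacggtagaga
RAD54, chrVII:196504-196753, - strand: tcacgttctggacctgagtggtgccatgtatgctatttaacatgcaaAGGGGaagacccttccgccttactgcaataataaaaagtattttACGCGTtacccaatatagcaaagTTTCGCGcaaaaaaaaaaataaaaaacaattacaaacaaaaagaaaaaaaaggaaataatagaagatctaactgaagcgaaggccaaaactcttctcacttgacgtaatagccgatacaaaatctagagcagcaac
RAD5, chrXII:204641-204890, + strand: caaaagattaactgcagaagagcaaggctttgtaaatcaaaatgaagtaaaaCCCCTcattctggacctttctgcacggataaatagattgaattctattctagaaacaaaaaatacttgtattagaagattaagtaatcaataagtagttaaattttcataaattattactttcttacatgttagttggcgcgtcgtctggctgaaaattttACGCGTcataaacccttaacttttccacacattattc
RAD16, chrII:466898-467147, + strand: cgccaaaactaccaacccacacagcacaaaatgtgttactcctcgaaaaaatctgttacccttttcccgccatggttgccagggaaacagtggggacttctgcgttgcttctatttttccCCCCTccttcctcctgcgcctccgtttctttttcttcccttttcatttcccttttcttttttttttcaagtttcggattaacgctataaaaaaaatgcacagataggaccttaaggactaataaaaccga
In the RAD5 window, 145 of the 250 bases lie inside the neighbouring gene YLR031W. None of the marked motifs overlapped another. An MCB was found in 3 of 33 member windows (9.09%) and in 202 of 6001 windows of annotated nuclear protein-coding genes (3.37%). An SCB was in 1 of 33 (3.03%, against 3.92% of all windows), a STRE in 5 of 33 (15.2%, against 20.1%), and the proteasome motif PACE (GGTGGCA) in 1 of 33 (3.03%, against 2.32%). A match is a string of letters in a window and does not show binding.

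Of the 3 genes with an MCB, 1 was called for the excision effect at 180 min, against 42.3% of all genes. At 180 min the excision effect was -0.08 for RAD53, -0.04 for RAD54 and 0.20 for RAD5, of which RAD5 alone was called (limma adjusted p = 0.0322). Of a list of 15 S-phase genes, chosen with earlier results of these data known, 11 were called lower and 1 higher at 180 min. Over all genes, 22.5% were called lower and 19.8% higher. The median of the list was -0.34, beside -0.01 over all genes. Motif matches in the promoters of these S-phase genes were not listed one by one. CLN2, a G1 cyclin, had an excision effect of -0.52 and POL12, a subunit of the DNA polymerase alpha complex, -0.47. From 0 to 180 min CLN2 rose in both strains, by 0.37 in cen4- cells and by 0.89 in CEN4 cells. POL12 changed by -0.44 in cen4- cells and by 0.03 in CEN4 cells.

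None of the 33 members had a called excision effect in the first hour after beta-estradiol, and a minority were called later. At 30 min the count was 0, against 1.85% of all genes tested, and limma gave 1 member an unadjusted p below 0.05. At 60 min the count was again 0, against 2.91% of all genes, with 4 members at an unadjusted p below 0.05. edgeR and DESeq2 on reads recovered from the table also called 0 at both times. At 120 min 4 members were called, all higher, against 26.1% of all genes called, 11.9% higher and 14.2% lower. They were RAD9 (0.48), RAD50 (0.40), RAD30 (0.34) and RAD2 (0.25). When libraries were brought to equal totals in place of size factors (the equal-total scaling), 13 members were called at 120 min, all higher, and the median of all genes rose by 0.08.

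At 180 min 13 of 33 members were called, 12 higher and 1 lower, against 42.3% of all genes called, 19.8% higher and 22.5% lower. No member changed 2-fold. The median excision effect over the 33 genes was 0.10, beside -0.01 over all 5948 genes. In levels compared directly between the strains at 180 min, DDC1 was called lower in cen4- cells, 11 of the 12 with a positive call were called higher, and RAD50 was not called. Under the equal-total scaling 14 members were called, all higher, while the median of all genes moved to 0.09.

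**Figure D1:**
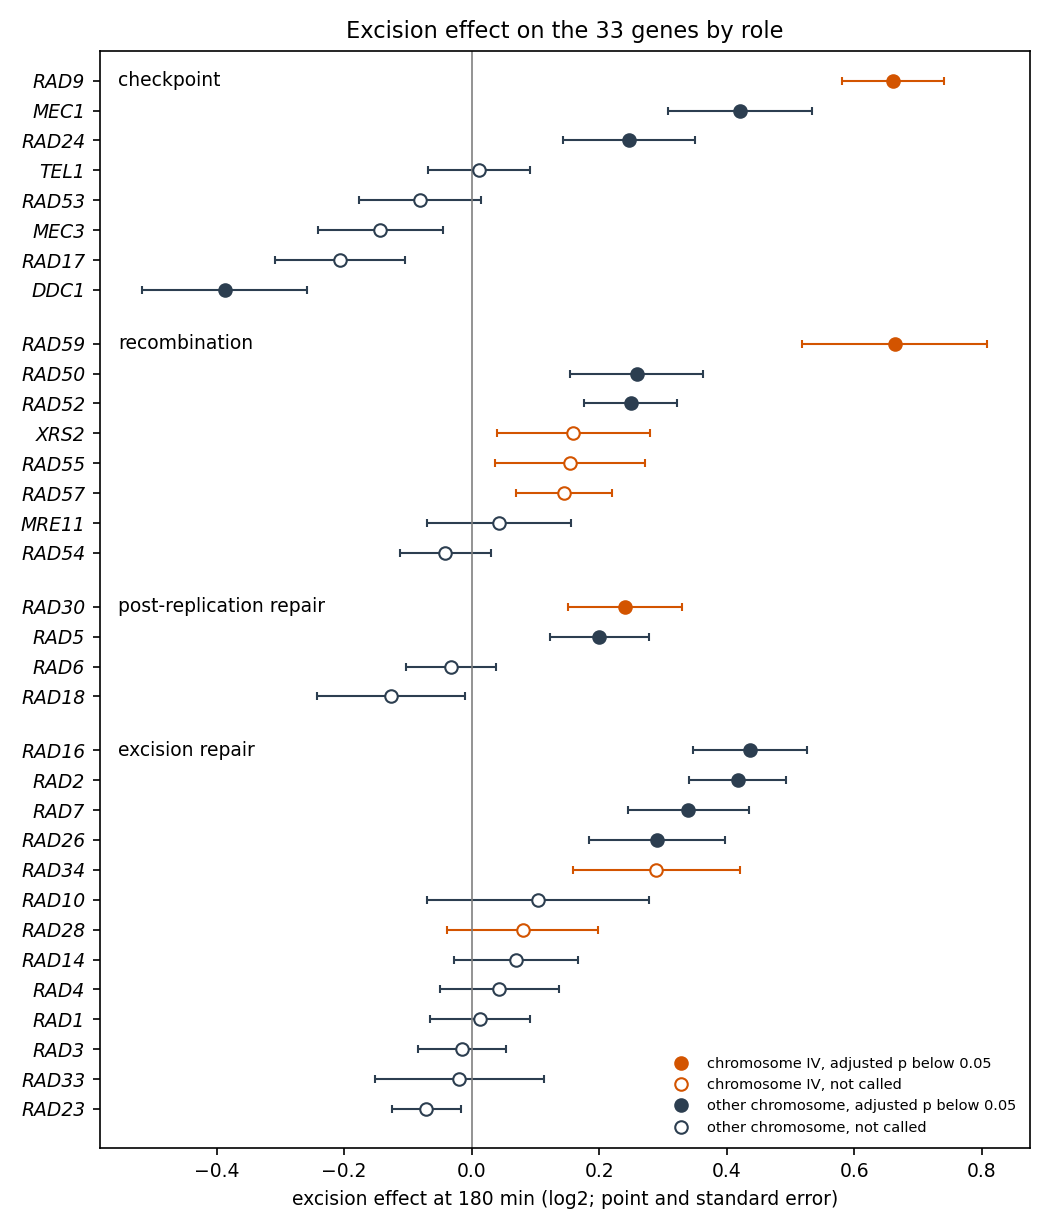
Excision effect at 180 min (log2, horizontal axis) of the 33 genes, ordered by role and by size, as points with standard errors; filled points were called by limma and orange marks chromosome IV. RAD59 and RAD9, both on chromosome IV, stand farthest to the right at 0.66, and DDC1 is the only filled point left of 0, at -0.39.

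Among the 8 checkpoint genes RAD9, MEC1 and RAD24 were called higher in the excision effect at 180 min and DDC1 lower. TEL1, RAD53, RAD17 and MEC3 were not called. Over all genes, 19.8% were called higher and 22.5% lower. RAD9 (chrIV:899551-903480), the adaptor that brings Rad53 to Mec1, had 1164, 1246 and 1177 normalised counts in cen4- cells at 180 min, against 681, 574 and 654 in CEN4 cells. At 0 min it had 884, 918 and 930 in CEN4* cells, against 785, 734 and 777 in CEN4 cells. The strains did not overlap at any of the 5 times, and the gap widened with time. The excision effect of RAD9 was 0.66 at 180 min (SE 0.08, limma adjusted p = 3.97e-10). RAD9 was also the only member that was called in opposite directions in the strains: it rose by 0.39 in cen4- cells since 0 min (limma adjusted p = 9.19e-09) and fell by 0.27 in CEN4 cells (limma adjusted p = 3.03e-05). Under the equal-total scaling the change in CEN4 cells was -0.06 and was not called (limma adjusted p = 0.347).

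MEC1 (chrII:505668-512774), the ATR-like kinase at the top of the checkpoint, had 580, 553 and 670 normalised counts in cen4- cells at 180 min, against 413, 436 and 459 in CEN4 cells. At 0 min the strains overlapped, with 428, 438 and 463 in CEN4* cells and 465, 432 and 399 in CEN4 cells. Its excision effect was 0.42 (SE 0.11, limma adjusted p = 0.00205). Within the strains, MEC1 rose by 0.43 in cen4- cells (limma adjusted p = 3.74e-06), beside a change of 0.01 in CEN4 cells (limma adjusted p = 0.884). TEL1, the related ATM-like kinase, had an excision effect of 0.01 (95% interval -0.15 to 0.17).

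DDC1 (chrXVI:179277-181115), a subunit of the ring-shaped clamp that marks damaged DNA, had 204, 184 and 197 normalised counts in cen4- cells at 180 min, against 253, 256 and 256 in CEN4 cells. The groups overlapped at each earlier time and separated at 180 min. Its excision effect was -0.39 (SE 0.13, limma adjusted p = 0.0121). Under the equal-total scaling it was -0.28 and no longer called (adjusted p = 0.067). The other clamp subunits had excision effects below 0 that were not called, RAD17 with -0.21 (limma adjusted p = 0.0953) and MEC3 with -0.14 (limma adjusted p = 0.248). In the direct comparison of the strains at 180 min all 3 clamp genes were called lower in cen4- cells, DDC1 by limma with -0.39, RAD17 with -0.18 and MEC3 with -0.18. Under the equal-total scaling DDC1 was called in that comparison with -0.23, and RAD17 and MEC3 stood at -0.02 each.

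RAD24, whose product loads that clamp, had an excision effect of 0.25 with a limma adjusted p of 0.0472. This call rested close to the threshold and held in 24 of 39 other settings. Within the strains, RAD24 changed by 0.01 in cen4- cells (limma adjusted p = 0.876) and fell by 0.23 in CEN4 cells (limma adjusted p = 0.00362). Under the equal-total scaling these changes were 0.33 and -0.03. RAD53, the effector kinase, had an excision effect of -0.08 (95% interval -0.27 to 0.11), with 459, 431 and 469 normalised counts in cen4- cells at 180 min and 480, 449 and 447 in CEN4 cells.

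**Figure D2:**
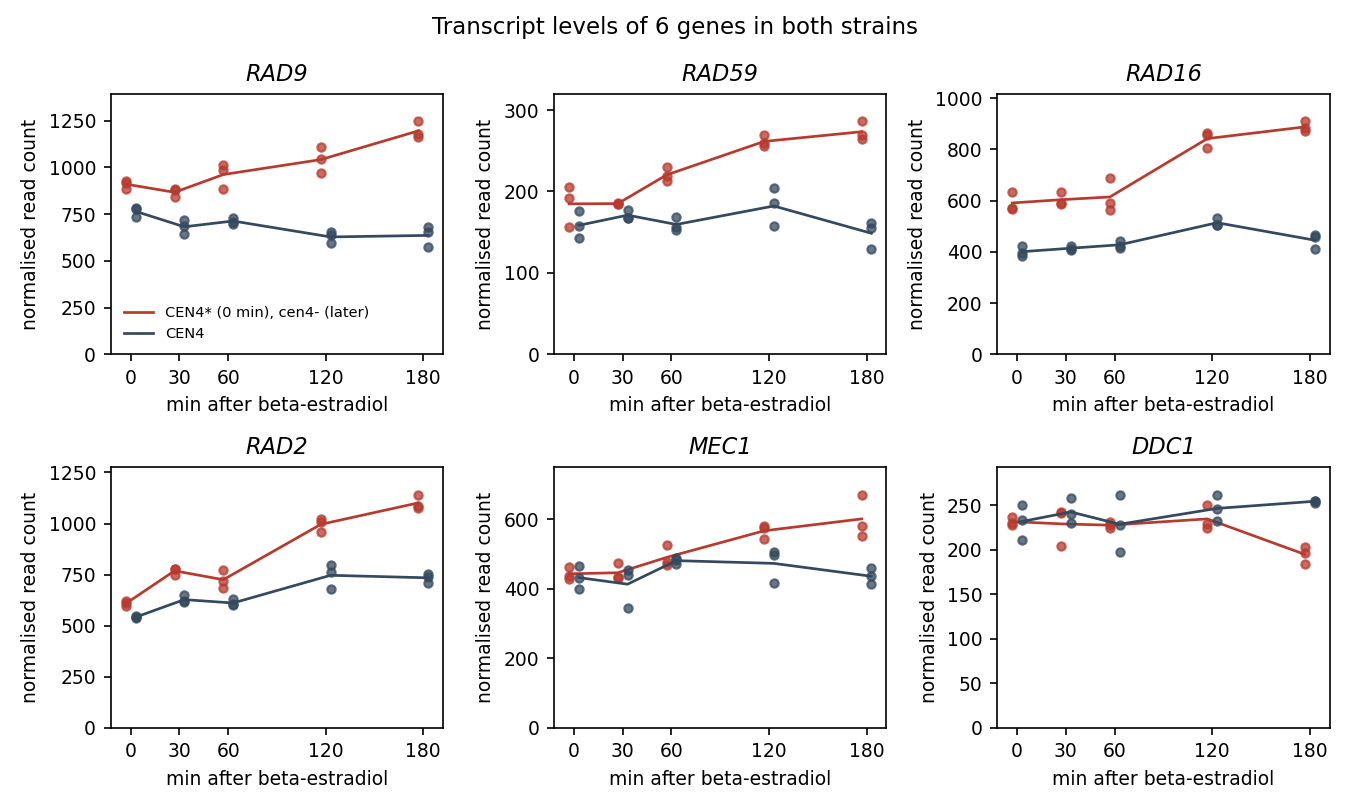
Normalised read counts (vertical axis, from 0) of RAD9, RAD59, RAD16, RAD2, MEC1 and DDC1 against min after beta-estradiol, with 1 point per library and lines through the means of 3 libraries; red is CEN4* at 0 min and cen4- afterwards, dark blue is CEN4. RAD9, RAD16 and RAD2 lie above the control from 0 min on, and MEC1 separates at 120 min. For DDC1, all points of cen4- cells lie below all control points at 180 min only.

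Of the 8 recombination genes, 3 had a positive call of the excision effect at 180 min and none a negative one. Over all genes, 19.8% had a positive call and 22.5% a negative one. RAD59 (chrIV:344237-344953), which helps Rad52 to anneal single strands, had 269, 286 and 265 normalised counts in cen4- cells, against 161, 155 and 130 in CEN4 cells. At 0 min its groups overlapped, at 193, 156 and 205 in CEN4* cells and 157, 143 and 175 in CEN4 cells. From 30 min on every library of cen4- cells lay above every CEN4 library of the same time. The excision effect of RAD59 was 0.66 (SE 0.15, limma adjusted p = 1.45e-04), with a rise of 0.57 in cen4- cells (limma adjusted p = 1.38e-06) and -0.09 in CEN4 cells (limma adjusted p = 0.426).

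RAD52 (chrXIII:212515-213930), the central protein of strand annealing, had 1062, 992 and 1071 normalised counts in cen4- cells at 180 min, against 866, 866 and 909 in CEN4 cells, and the groups did not overlap. Its excision effect was 0.25 (SE 0.07, limma adjusted p = 0.00417). RAD50 (chrXIV:175410-179348), the ATPase of the MRX complex that binds broken ends, had 363, 367 and 366 normalised counts in cen4- cells at 180 min, against 352, 365 and 323 in CEN4 cells. Its groups overlapped at 180 min, and the direct difference of 0.08 was not called (limma adjusted p = 0.374). The excision effect of 0.26 (SE 0.10, limma adjusted p = 0.0401) also carried the 0 min values, which were 342, 320 and 312 in CEN4* cells and 389, 341 and 377 in CEN4 cells. The other MRX subunits were not called, MRE11 with an excision effect of 0.04 (95% interval -0.18 to 0.27) and XRS2 with 0.16 (95% interval -0.08 to 0.40).

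The paralogs RAD55 and RAD57, whose products work as a pair in recombination, both lie on chromosome IV. RAD55 had 301, 314 and 327 normalised counts in cen4- cells at 180 min, against 281, 290 and 275 in CEN4 cells. RAD57 had 1011, 992 and 986 in cen4- cells, against 868, 915 and 813 in CEN4 cells. Their excision effects of 0.15 and 0.14 were not called (limma adjusted p = 0.306 and 0.117). Under the equal-total scaling the excision effect of RAD57 was 0.25 and was called (limma adjusted p = 0.00543). In direct levels at 180 min RAD57 was called higher with 0.21 (limma adjusted p = 6.20e-04). RAD55, with 0.15, was not (limma adjusted p = 0.101). RAD54, a DNA translocase of recombination, differed at 0 min, with 698, 689 and 690 normalised counts in CEN4* cells, against 583, 564 and 583 in CEN4 cells. It kept a direct difference of 0.22 at 180 min (limma adjusted p = 1.14e-04), and its excision effect was -0.04 (95% interval -0.18 to 0.10).

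In post-replication repair, RAD30 and RAD5 were higher and RAD6 and RAD18 were not called. RAD30 (chrIV:1303174-1305072), the translesion polymerase eta, had 642, 694 and 560 normalised counts in cen4- cells at 180 min, against 506, 537 and 495 in CEN4 cells. The strains separated from 30 min on, and the excision effect was 0.34 at 120 min (limma adjusted p = 0.00279) and 0.24 at 180 min (limma adjusted p = 0.0245). RAD5, a helicase and ubiquitin ligase, had 822, 811 and 844 in cen4- cells at 180 min, against 689, 668 and 668 in CEN4 cells, without overlap. The ubiquitin-conjugating enzyme RAD6 had an excision effect of -0.03 (95% interval -0.18 to 0.11), and its partner ligase RAD18 had -0.13 (95% interval -0.36 to 0.11).

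Of the 13 excision repair genes, 4 were called higher and none lower at 180 min, against 19.8% of all genes higher and 22.5% lower. Those called included RAD7 and RAD16, whose products act together in finding lesions outside transcribed genes. RAD16 (chrII:467248-469620), an ATPase, had 909, 873 and 882 normalised counts in cen4- cells at 180 min, against 459, 412 and 466 in CEN4 cells. At 0 min it had 567, 571 and 635 in CEN4* cells, against 385, 422 and 395 in CEN4 cells. RAD16 was thus apart at 0 min, by 0.56 (limma adjusted p = 1.38e-10), and the gap widened by a further 0.44 at 180 min (SE 0.09, limma adjusted p = 4.98e-05). The excision effect of RAD16 was 0.15 at 120 min, and the increase of 0.28 between 120 and 180 min was the only such change called among the members (limma adjusted p = 0.0238), against 12.5% of all genes. Leaving out 1 library at a time gave 0 to 2 such calls.

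RAD7 (chrX:532062-533759), the partner of Rad16, had 521, 569 and 550 normalised counts in cen4- cells at 180 min, against 398, 431 and 412 in CEN4 cells, with an excision effect of 0.34 (SE 0.09, limma adjusted p = 0.00264). RAD2 (chrVII:1007671-1010766), the nuclease that cleaves the damaged strand, had 1140, 1085 and 1078 in cen4- cells, against 738, 710 and 755 in CEN4 cells, with an excision effect of 0.42 (SE 0.08, limma adjusted p = 6.93e-06). RAD26 (chrX:497355-500612), which acts where RNA polymerase II stalls, had 479, 469 and 509 in cen4- cells, against 362, 311 and 395 in CEN4 cells, with an excision effect of 0.29 (SE 0.11, limma adjusted p = 0.0225). In direct levels at 180 min all 3 were called higher in cen4- cells, as were 30.9% of all genes. RAD2 rose in both strains since 0 min, by 0.86 in cen4- cells and 0.44 in CEN4 cells (limma adjusted p = 2.35e-22 and 8.68e-11).

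The rest of excision repair was not called. Effects were 0.29 for RAD34 (95% interval 0.03 to 0.55, limma adjusted p = 0.0688), a relative of RAD4, 0.04 for RAD4 and -0.07 for RAD23, which together recognise lesions, and 0.07 for RAD14, which binds damaged DNA. The nuclease subunits RAD1 and RAD10 had 0.01 and 0.10; RAD10 overlaps the reading frame YML096W, which averaged 741 normalised counts, so its own 103 to 156 normalised counts are uncertain without strand information. RAD3, the helicase of TFIIH, had -0.02 and RAD33, a partner of Rad4, -0.02. Over the 20 members not called at 180 min the 95% intervals ran from -0.41 for RAD17 to 0.55 for RAD34, so effects up to those bounds are not excluded for these genes.

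Several members changed with time alike in both strains, which the excision effect removes. RAD28, the yeast relative of the human CSA repair factor, reached 434 ± 19.8 normalised counts by 180 min in the excised strain, against 387 ± 21.2 in the control (SD, n = 3 each). At 0 min it stood at 224 ± 15.2 in CEN4* cells, against 211 ± 4.75 in the control (SD, n = 3 each). It rose by 0.95 in cen4- cells and by 0.87 in CEN4 cells (limma adjusted p = 5.38e-16 and 1.99e-14). RAD3 fell by 0.42 in cen4- cells and by 0.40 in CEN4 cells (limma adjusted p = 1.54e-11 and 6.00e-11), and it also fell in both under the equal-total scaling, by 0.10 and by 0.19.

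With size factors, members were called early in both strains less often than genes at large. In cen4- cells 13 were called at 30 min against 0 min (62.2% of all genes), 10 at 60 min (56.5%) and 21 at 120 min (72.0%). In CEN4 cells the counts were 11 at 30 min (63.7% of all genes), 10 at 60 min (57.1%) and 19 at 120 min (70.6%). Each of these counts is out of 33 members. With libraries at equal totals they were 25 at 60 min and 32 at 120 min in cen4- cells, beside 3947 and 4719 of all 5948 genes. In CEN4 cells they were then 18 at 30 min and 22 at 60 min, beside 3946 and 3817 of all genes. Without cen4- replicate 1 at 60 min, 6 members were called at 60 min in cen4- cells.

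From 0 to 180 min, 24 members changed in cen4- cells, 20 of them higher and 4 lower, against 75.2% of all genes called, 37.5% higher and 37.7% lower. In CEN4 cells 17 changed, 12 higher and 5 lower, against 71.2% of all genes, 36.0% higher and 35.2% lower. Counted gene by gene, 10 rose in both strains (28.2% of all tested genes did) and 3 fell in both, RAD3, RAD6 and RAD23 (28.1% of all tested genes). Another 9, against 7.31% of all tested genes, were called higher in cen4- cells but not called in CEN4 cells (MEC1, RAD59, RAD55, RAD30, RAD26, RAD7, RAD52, RAD14 and RAD50). For RAD55 and RAD14 of these the difference between the strains, which is the excision effect, was not called. Under the equal-total scaling, 30 were higher and 1 lower in cen4- cells and 25 higher and 1 lower in CEN4 cells, since that scaling moved the median of all genes by 0.31 and 0.21. The falls of RAD23, RAD6 and DDC1 in cen4- cells and of RAD6 in CEN4 cells had the opposite sign under it.

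**Figure D3:**
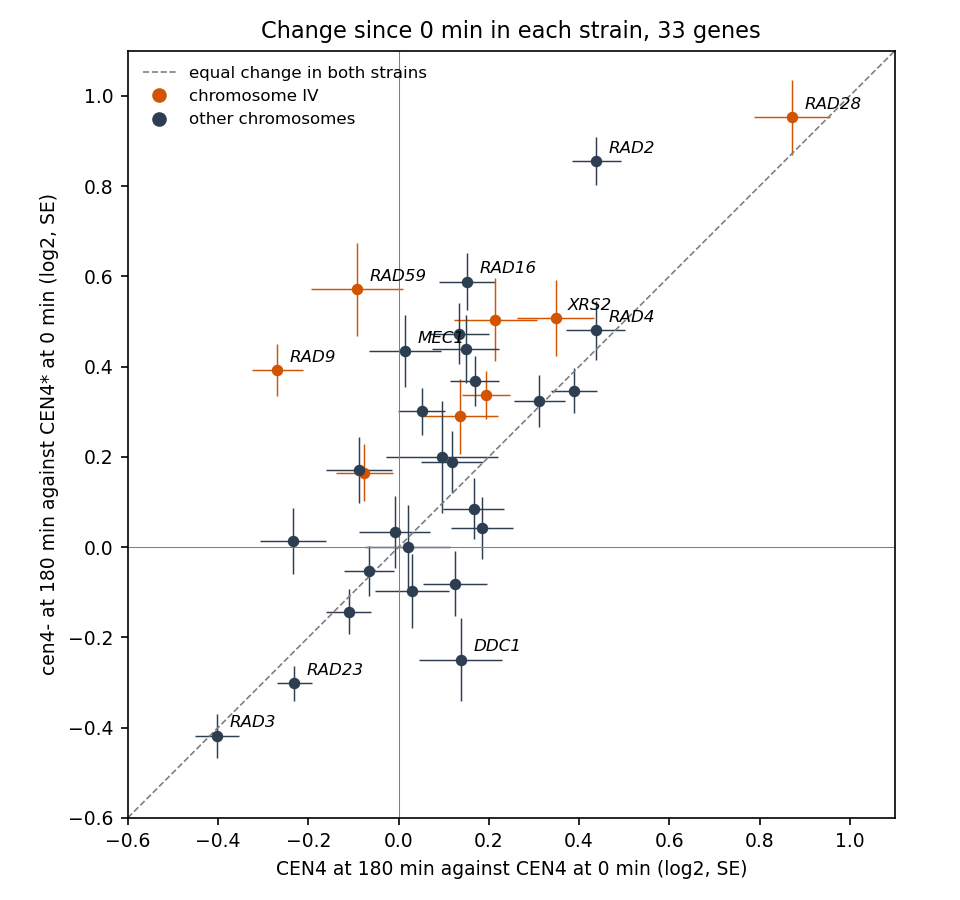
Change from 0 to 180 min (log2, with standard errors) of the 33 genes in the excised strain (vertical axis) and in CEN4 (horizontal axis); the dashed line marks equal change and orange marks chromosome IV. RAD28, RAD4, RAD3 and RAD23 lie near the line, RAD9 has 0.39 in cen4- and -0.27 in CEN4 cells, and DDC1 lies below the line.

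At 0 min, 4 of 33 members were already higher in CEN4* than in CEN4 cells and none was lower, against 15.9% of all genes called, 8.83% higher and 7.06% lower. They were RAD16 (0.56), RAD54 (0.26), RAD9 (0.25) and RAD2 (0.17). With RAD2 at 610, 619 and 595 normalised counts in CEN4* cells and at 546, 543 and 535 in CEN4 cells, even this smallest difference left no overlap (limma adjusted p = 0.0228). RAD16, RAD9 and RAD2 were among those with the larger excision effects later, and RAD54 was not. Comparing the strains at 180 min without the 0 min libraries, 20 members differed, 16 higher and 4 lower in cen4- cells, against 64.1% of all genes called, 30.9% higher and 33.2% lower. Under the equal-total scaling 25 were higher and 1 lower, and RAD23, called lower with -0.13, stood at 0.03.

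The 8 members on chromosome IV were all above 0 in the excision effect at 180 min, with a median of 0.20, and 3 were called (RAD9, RAD59 and RAD30). Of the 25 members on other chromosomes, 15 were above 0, the median was 0.04, and 9 were called higher and 1 lower. Over the whole table the median was 0.14 for 768 tested genes of chromosome IV, of which 38.2% were called higher and 11.8% lower, and -0.03 for 5177 genes of the other nuclear chromosomes, of which 17.1% were called higher and 24.0% lower. Among the members the medians differed by 0.16, a description with no test, since genes are not replicates, while positive calls took 3 of 8 members on chromosome IV and 9 of 25 elsewhere. Under the equal-total scaling RAD57 (0.25) and RAD34 (0.39), both on chromosome IV, were called higher as well (limma adjusted p = 0.00543 and 0.0125). The median of all genes was then 0.09. In direct levels at 180 min, 6 of the 8 were called higher in cen4- cells and none lower, against 53.8% of all tested genes of chromosome IV called higher and 17.6% lower, and their median was 0.33, beside 0.18 over those genes. At 0 min 1 of the 8, RAD9, was called, with a median of 0.11, beside 0.04 over all tested genes of the chromosome.

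All 8 chromosome IV members rose in cen4- cells from 0 to 180 min, with a median of 0.45, against 54.0% of all tested genes of the chromosome. In CEN4 cells 4 of the 8 rose and RAD9 fell, against 35.8% of those genes called higher and 34.8% lower. XRS2 had 386, 356 and 367 normalised counts in cen4- cells at 180 min, against 306, 271 and 290 in CEN4 cells. RAD34 had 303, 307 and 305 in cen4- cells, against 228, 236 and 220 in CEN4 cells. Directly at 180 min XRS2 was called higher with 0.35 and RAD34 with 0.42 (limma adjusted p = 2.19e-04 and 7.41e-05). The same held for 53.8% of all tested genes of chromosome IV. The excision effects of XRS2 and RAD34 were not called with size factors. In order of distance from the centromere, the excision effect was 0.14 for RAD57 at 5.38 kb, 0.08 for RAD28 at 51.9 kb, 0.66 for RAD59 at 104.8 kb, 0.15 for RAD55 at 148.6 kb, 0.66 for RAD9 at 449.7 kb, 0.29 for RAD34 at 640.6 kb, 0.16 for XRS2 at 765.2 kb and 0.24 for RAD30 at 853.4 kb. A relation with distance was not tested. At 30 and 60 min the chromosome IV members had medians of 0.04 and 0.07, and at 120 min 0.26.

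**Figure D4:**
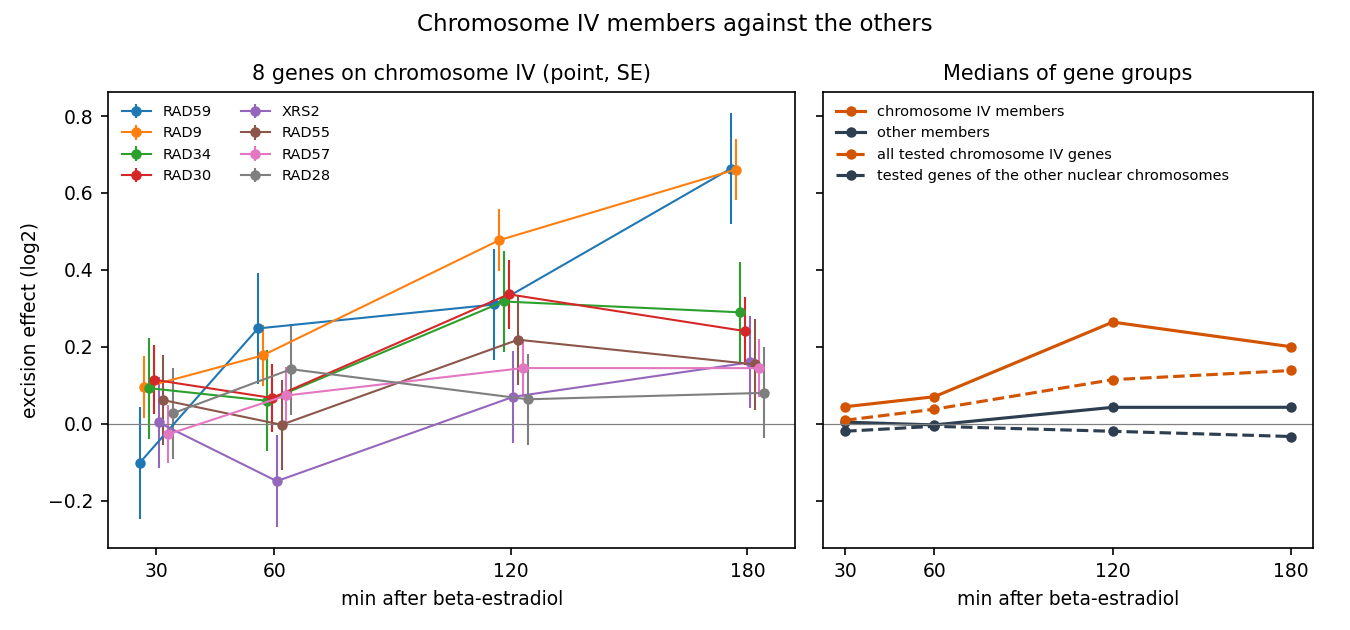
Excision effect (log2) at 30 to 180 min, left for each of the 8 genes on chromosome IV (points with standard errors) and right as medians of the 8 and of the 25 other genes (solid) beside all tested genes of chromosome IV and of the other nuclear chromosomes (dashed). All 8 genes lie above 0 at 120 and at 180 min, and both chromosome IV medians lie above those of the other chromosomes.

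The wider repair network was called in both directions. Of 90 further genes of damage signalling and repair, 89 were tested, and 11 were called higher and 12 lower at 180 min, against 19.8% of all genes called higher and 22.5% lower, with a median of 0.00. The counts of single lists at 180 min are to be read against the same percentages. In the first hour 1 of the 89 was called, RFA2, with -0.25 at 30 min and -0.24 at 60 min (limma adjusted p = 0.0245 and 0.0258). Transcripts that DNA damage is known to induce gave 1 call in 8 tested genes. That gene was RNR3, a large subunit of ribonucleotide reductase and a textbook damage reporter. At 180 min RNR3 averaged 392 ± 1.26 normalised counts in cen4- cells and 256 ± 6.34 in CEN4 cells (SD, n = 3 each). Since 0 min it had risen in both strains, by 0.97 in cen4- cells and by 0.52 in CEN4 cells. Its excision effect was 0.45 (limma adjusted p = 0.00309). RNR2 had 0.14 (limma adjusted p = 0.0534), RNR4 -0.01 and HUG1, a small inhibitor of the reductase, -0.07, and none of them was called.

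Further recombination genes gave 3 higher and 4 lower calls of 20. CSM2 and SHU1, subunits of the Shu complex of recombination, had -0.73 and -0.60 (limma adjusted p = 1.99e-04 and 3.90e-04), and RFA2, a subunit of the single-strand binding protein RPA, had -0.37 at 180 min. From 0 to 180 min RFA2 rose by 0.28 in cen4- cells and by 0.65 in CEN4 cells. CSM2 changed by -0.42 and 0.31, and SHU1 by -0.23 and 0.37. MUS81, a nuclease for joint molecules, had 0.34. The remaining subunits of the Shu complex were not called, PSY3 with -0.12 and SHU2 with -0.13.

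In post-replication repair beyond the members, 1 of 7 genes was called, UBC13. It builds ubiquitin chains on the replication clamp and lies on chromosome IV. At 180 min UBC13 averaged 2109 ± 57.3 normalised counts in cen4- cells and 1439 ± 27.6 in CEN4 cells (SD, n = 3 each). Its change since 0 min was 0.79 in cen4- cells and 0.33 in CEN4 cells, an excision effect of 0.47. Excision repair beyond the members gave 4 higher and 2 lower calls of 13. SSL2 (0.33), CCL1 (0.31) and TFB3 (0.28), all subunits of TFIIH, were higher, while TFB4 (-0.34), another subunit of TFIIH, and ABF1 (-0.39), a DNA-binding factor known to work with Rad7 and Rad16, were lower. Since 0 min SSL2 had changed by 0.02 in cen4- cells and -0.31 in CEN4 cells, and ABF1 by -0.01 and 0.38. In the same order, CCL1 had changed by 0.13 and -0.18, TFB3 by 0.23 and -0.04, and TFB4 by -0.27 and 0.07. Of 19 other signalling genes 3 were lower, PDS1, the anaphase inhibitor securin, with -0.25, RTT107, a scaffold for repair at stalled forks, with -0.24, and PTC2, a phosphatase that acts on Rad53, with -0.14. PDS1 had risen since 0 min by 0.45 in cen4- cells and by 0.71 in CEN4 cells. RTT107 had changed by -0.01 and 0.23, and PTC2 by -0.49 and -0.35. End joining had 1 call of 6, the Ku subunit YKU80 with -0.31, after rises of 0.19 in cen4- cells and 0.50 in CEN4 cells. Base excision and direct repair had 2 of 9, the alkyltransferase MGT1 with 0.41 and the nuclease APN1 with -0.29.

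Within the group, levels per length covered a wide range. RAD23 averaged 2720 normalised counts per kb of coding length and RAD6 1887, followed by RAD52 with 676. MEC1 was the lowest at 67.3 per kb, and RAD50 had 90.6. The promoter class in the deposited table was a TATA box for RAD3, RAD16, RAD33 and RAD53 (12.1% of members, beside 10.7% of all genes). It was a TATA-like element for 21 members (63.6%, beside 50.3% of all genes), and 8 members had no class. Of 7127 genes, 764 had a TATA box, 3588 a TATA-like element and the rest no class. These shares thus also depend on how many genes were given a class.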

How the data were processed

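The authors' deposited table holds signal values: reads of each gene after division by DESeq2 size factors, 1 column a library. STAR 2.6.1, DESeq2 and build R64 (sacCer3) are listed in the submitters' processing notes, while the counting program and its strand setting are not given in the sources used here. In all 30 libraries 100% of values were whole multiples of 1 read within 1e-06, and these reads served the count tests.

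The fit used limma 3.58.1 (R 4.3.3, trend and robust options) on log2(value + 1), with 10 group means (20 residual degrees of freedom), over 5948 genes with a mean of at least 10, of which 768 lie on chromosome IV. The pseudocount understates changes of weak genes. P-values were adjusted by Benjamini-Hochberg within each comparison, and the script was tested on simulated data. Replicate libraries differed beyond counting noise (chi-square per degree of freedom 1.48 to 7.75 over 30 pairs). The p-values rest on the spread between the 3 libraries within a group, pooled over the 10 groups. The fit had no term for the experiment and treated all libraries as independent. All comparisons that use a 0 min group share its libraries.

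Coordinates and sequences are from the R64 genome, whose annotation matched 6047 of 7127 genes, each on the same chromosome as in the table. Members, lists and roles were chosen with earlier results of these data known. Values in each library are given for the members called at 180 min with the 8 largest rises or falls, for up to 4 called at 0 min and for chromosome IV, and other genes as the 3 largest called rises and falls of each list; RAD52, RAD5 and RAD53 were added after their values were seen. Some genes and sequences are not reported here. Protein sequences were not used here, so the planned comparison of related proteins was not made. Alternatives were other pseudocounts, filters, scalings, edgeR 4.0.16, DESeq2 1.42.0, a block and leaving out each library.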

Additional observations from a re-analysis of the deposited data

Results flagged for a closer look

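RAD9 stood out because its 2 strains moved in opposite directions from 0 to 180 min, up in cen4- cells and down in CEN4 cells, with an excision effect of 0.66 (limma adjusted p = 3.97e-10). This effect was called in 39 of 39 other settings, from 0.59 to 0.77, but the fall in CEN4 cells was not called when libraries were brought to equal totals.

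RAD16 stood out because its excision effect differed between time points: it was higher by 0.28 at 180 min than at 120 min (limma adjusted p = 0.0238). That difference was not called without CEN4 replicate 2 at 180 min, without cen4- replicate 3 at 120 min or without cen4- replicate 1 at 180 min. Its excision effect at 180 min itself held in all 39 other settings, from 0.38 to 0.54.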

How the results depend on the processing

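Each member's excision effect at 180 min was recomputed in 39 settings, 9 other choices and 30 libraries left out in turn, and 1238 of 1287 calls or non-calls were kept, with no called effect changing sign. RAD59, RAD9, RAD16, RAD2, MEC1, RAD7 and RAD52 were called in all 39, DDC1 in 37, RAD26 and RAD30 in 34, RAD5 in 32, RAD50 in 28 and RAD24 in 24. Leaving out single libraries gave 9 to 13 calls at 180 min, 3 to 5 at 120 min, 3 to 6 for the strains at 0 min and 16 to 21 for the direct difference at 180 min. For cen4- at 60 min against 0 min, 10 members were called, and 6 to 11 without single libraries, the lowest without cen4- replicate 1 at 60 min. For the excision effect at 180 min against that at 120 min it was 1, and 0 to 2. Among the 9 other choices only scaling to the same total moved counts by over 1.5 times. It gave 13 members (13 higher) for the excision effect at 120 min, 25 (25 higher) and 32 (31 higher) for cen4- at 60 and 120 min against 0 min, and 18 (17 higher), 22 (21 higher) and 26 (25 higher) for CEN4 at 30, 60 and 180 min against 0 min; it raised the median of all genes by 0.08 to 0.28 there. edgeR and TMM scaling each called 10 members at 180 min and DESeq2 11. The chromosome IV difference of 0.16 ran from 0.14 to 0.21 without single libraries. Library numbers shared by the strains did not pair them (r from -0.10 to 0.12 over 15 pairs, 1 above 0.1, and 6 libraries closest to their own number), and a fit with that number as a replicate block called 12 members at 180 min, 4 at 120 min, 0 at 60 and 30 min, 4 at 0 min and 20 directly at 180 min; changes within a strain cannot be fitted with it. A block for the 3 experiments was not run, since the labels do not number them. With 3 libraries a group, the median standard error of 0.10 limits what is detectable.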
